A study of Mus musculus with 6 samples.

Results

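The glucocorticoid receptor gene Nr3c1, the cortisone-reactivating enzyme gene Hsd11b1 and 7 genes whose transcription glucocorticoid hormones are known to raise (Fkbp5, Tsc22d3, Sgk1, Zbtb16, Dusp1, Klf9 and Cdkn1a) were followed in mouse lung. They were taken by name as a fixed list of 9 of the 21900 genes measured. All 9 passed the low-value filter, a mean of at least 0.5 counts per 1000000 reads (CPM), as did 17382 genes in all. The gene with the fewest reads in any library, Fkbp5, still had about 353 there.

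Glucocorticoids, corticosterone in the mouse, enter cells and bind the receptor, which waits in the cytoplasm in a complex of HSP90 and co-chaperones. The bound receptor moves to the nucleus, binds palindromic response elements in DNA and raises the transcription of target genes, some of which damp the hormone's action in turn. In lung this pathway is known for driving maturation of the epithelium before birth and for holding down inflammation.

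RNA was sequenced in 6 libraries from lungs of mice given a high fat diet for 10 weeks, which the series title calls a western diet. The groups were 3 libraries labelled Cyp1b1 KO (females 1 and 2, male 3) and 3 labelled Wild Type (females 1 and 2, male 3); Cyp1b1 encodes a cytochrome P450 that metabolises steroids and aromatic compounds. All mice of both labels had the diet, so none shows the lung without it. The kind of knockout allele, the strain, the age of the mice and the hour of collection were not stated in any source used. Libraries of different label or sex are from different animals, but nothing in the labels says that the 2 female libraries of one label are. The p-values therefore describe only the variation among these 6 libraries.

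Cyp1b1 itself went against the labels, with 51.2, 56.1 and 48.4 CPM in the libraries labelled knockout, against 12.5, 19.0 and 18.5 CPM in those labelled wild type. Its difference was 1.63 ± 0.18 (log2, SE; limma adjusted p = 0.0588, and 0.0197 to 0.683 over the alternative settings), so each group is named below by its label. Reads assigned to genes, estimated from the step between the low values, numbered 20.2 to 27.6 per library in units of 1000000. Lung epithelial markers were present in every library. The summed level of 5 alveolar type 2 markers was 13333 to 17946 CPM under the knockout label. Under the wild type label it was 14806 to 19084 CPM. The male was the lowest library of each label. Airway epithelial sums were lower in the males as well. For 3 club markers the females had 24030 to 28768 CPM, the male labelled knockout 12964 CPM and the other male 17892 CPM. For 4 ciliated markers these values were 277 to 382, 150 and 266 CPM, in the same order. The part of these lists in the results was not tested. Both males stood apart from the females. In the male labelled knockout, 8 neutrophil markers summed to 5815 CPM, against 169 to 238 CPM in the 4 females and 318 CPM in the male of the wild type label. In the male labelled knockout all 8 of 8 neutrophil, all 5 of 5 platelet and all 5 of 5 erythroid markers were at their highest of the 6 libraries, and none of these markers was at or under 3 reads in any library. In the male labelled wild type all 5 of 5 T cell, 5 of 5 plasma cell and 4 of 5 dendritic markers were at their highest; its T cell sum was 89.6 CPM, against 20.4 to 29.4 CPM in the other 5 libraries. The mitochondrial share of reads was highest in the male labelled knockout, at 5.46%, and lowest in the male labelled wild type, at 3.24%. In whole tissue, fewer cells of a type and less RNA per cell cannot be told apart.

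Promoter sequences from RefSeq (GRCm38.p6, 250 bases before to 50 after each annotated start) were found for 7 of 9 members, with 15 starts in all. The 3 stretches that follow are shown because they hold the motifs known for hormone and cAMP response; capitals mark the motif matches. The response element of the receptor has 2 arms, AGAACA and TGTTCT, 3 bases apart; on either strand the arm TGTTCT was in 19.0% of 32851 promoters, and the full palindrome in 3 of them (0.00913%). One of these was an Sgk1 start, with the palindrome 189 bases before it and an E-box CACGTG at 246, whose last 2 bases also begin a further TGTTCT. A Tsc22d3 start held this arm only. A Dusp1 start held the cAMP element TGACGTCA, found in 1.79% of promoters, 143 bases before it, and an E-box, found in 7.15%, at 126.
Sgk1, chr10:21993640-21993789, plus strand: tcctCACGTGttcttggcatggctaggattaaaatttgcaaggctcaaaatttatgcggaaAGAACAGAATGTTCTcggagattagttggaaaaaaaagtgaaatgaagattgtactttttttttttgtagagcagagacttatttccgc
Tsc22d3, chrX:140600623-140600772, minus strand: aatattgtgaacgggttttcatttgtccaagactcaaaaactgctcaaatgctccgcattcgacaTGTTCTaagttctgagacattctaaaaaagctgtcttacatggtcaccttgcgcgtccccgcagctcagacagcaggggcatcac
Dusp1, chr17:26508573-26508722, minus strand: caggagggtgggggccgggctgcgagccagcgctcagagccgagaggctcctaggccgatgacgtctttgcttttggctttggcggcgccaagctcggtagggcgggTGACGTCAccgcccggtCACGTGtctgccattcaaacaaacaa

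A match describes these letters in this window and is neither a site of binding nor a cause. Fkbp5, whose known response elements lie within introns, held an E-box and no TGTTCT in this window.

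Nr3c1, the receptor through which the hormone acts, was the steadiest of the 9. It had 234, 212 and 198 CPM in libraries labelled knockout, against 231, 220.3 and 211 CPM in those labelled wild type. The highest library was 1.18 times the lowest, and the libraries labelled wild type lay inside the range of those labelled knockout. The means were 215 ± 18.0 CPM and 221 ± 9.87 CPM (SD, n = 3 each), a difference of -0.04 ± 0.10 (log2 of CPM plus 0.5, SE; limma adjusted p = 0.918). Nr3c1 (ENSMUSG00000024431) lies on chromosome 18, from 39410545 to 39519421 on the minus strand of mm10, by GENCODE M21.

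Hsd11b1, which encodes the enzyme that regenerates active hormone from its inert 11-keto form inside the cell, varied more and ran in opposite orders under the labels. It had 122 and 164 CPM in the females and 174 CPM in the male labelled knockout, against 192 and 155 CPM (females) and 120.3 CPM (male) under the wild type label. The male was thus the highest of its label among libraries labelled knockout and the lowest among those labelled wild type. The means, 153 ± 27.4 and 156 ± 36.1 CPM (SD, n = 3 each), differed by -0.02 ± 0.20 (log2, SE; limma adjusted p = 0.986). The difference of the label effect between male and females, the interaction, was 0.82 ± 0.28 (log2, SE; limma adjusted p = 0.176, unadjusted p = 0.0178). Hsd11b1 spans chromosome 1, 193221634 to 193264075, minus strand. Its exons overlap the spans of 4930570N18Rik and Lamb3 on the other strand, but no measured gene had exons that overlap its own. No source used here says whether counting used strand.

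Among the targets, Fkbp5 and Zbtb16 moved over the widest range. Fkbp5 encodes FKBP51, a co-chaperone of HSP90 that lowers the receptor's affinity for hormone and so closes a feedback loop. It had 15.8 and 29.1 CPM in the females and 146 CPM in the male labelled knockout, against 21.6 and 28.8 CPM (females) and 34.6 CPM (male) under the wild type label. The male labelled knockout was 4.21 times the next highest library, while the other 5 libraries of both labels lay between 15.8 and 34.6 CPM. Zbtb16 encodes PLZF, a zinc-finger transcriptional repressor. It had 20.4 and 59.8 CPM in the females and 177 CPM in the male labelled knockout, against 15.8 and 63.0 CPM (females) and 44.8 CPM (male) under the wild type label. Here too the male labelled knockout was highest, 2.81 times the next library, and the females numbered 2 stood above the females numbered 1 under both labels.

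**Figure D1:**
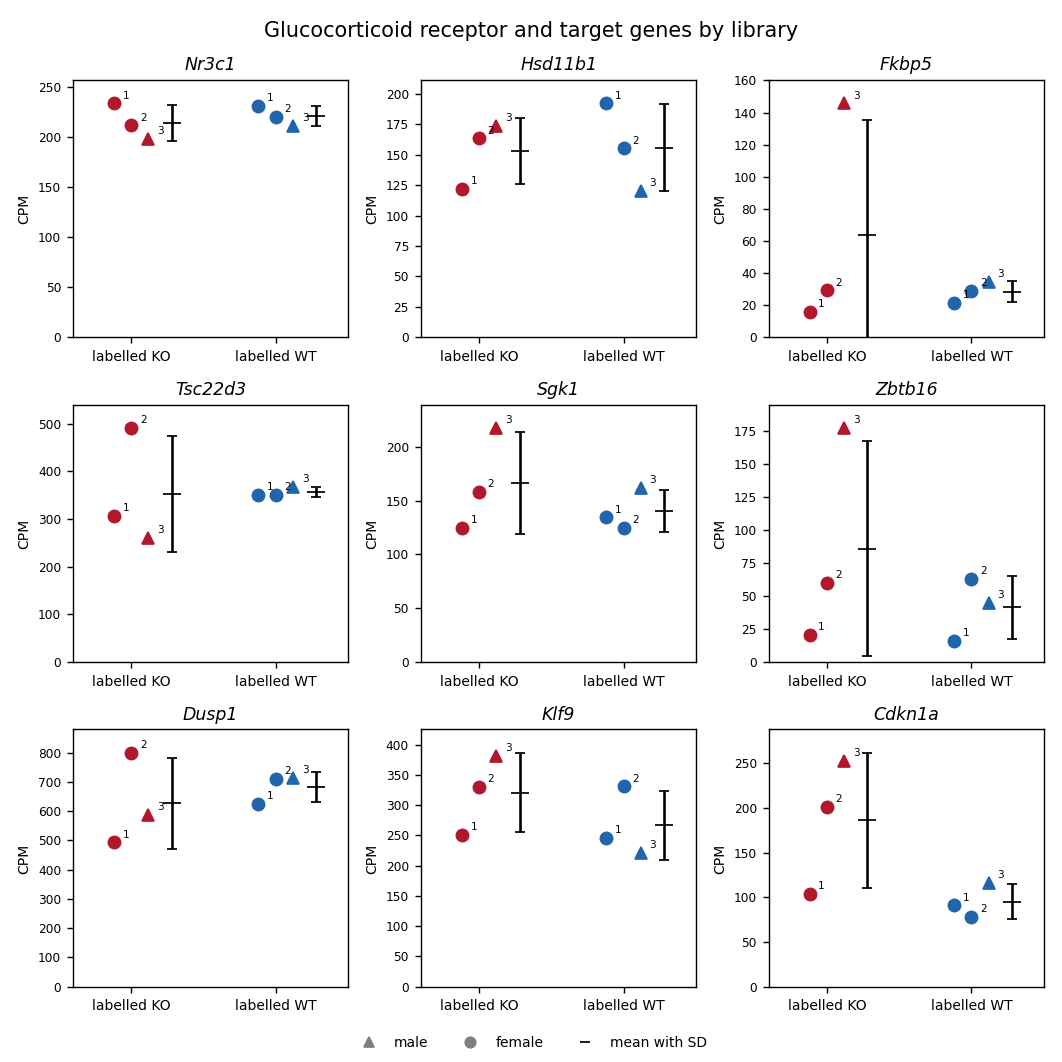
Level of each of the 9 genes in CPM in every library (circles for females, triangles for males, numbered by library), with the mean and SD of each label's 3 libraries; axes start at 0 and the lower SD bar of Fkbp5 in libraries labelled knockout stops there. The male labelled knockout stands far above the rest for Fkbp5 (146 CPM) and Zbtb16 (177 CPM), while Nr3c1 stays between 198 and 234 CPM.

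Neither gene passed the comparison by label. Fkbp5 averaged 63.6 ± 71.5 CPM under the knockout label and 28.3 ± 6.54 CPM under the wild type label (SD, n = 3 each), a difference of 0.55 ± 0.44 (log2, SE; limma adjusted p = 0.778). Among the 4 females alone it was -0.21, so the sign of the pooled value rests on the males. Zbtb16 averaged 85.7 ± 81.4 and 41.2 ± 23.8 CPM (SD, n = 3 each), a difference of 0.75 ± 0.60 (log2, SE; limma adjusted p = 0.778), and 0.14 among the females alone. Fkbp5 spans chromosome 17, 28399094 to 28517527, minus strand, 51.3 Mb from Cyp1b1 on the same chromosome. Zbtb16 spans chromosome 9, 48654297 to 48836222, minus strand.

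Cdkn1a, which encodes the cyclin-dependent kinase inhibitor p21 and is a target of p53 as well as of the receptor, had the smallest unadjusted p by label. It had 104 and 202 CPM in the females and 253 CPM in the male labelled knockout, against 91.1 and 78.0 CPM (females) and 116 CPM (male) under the wild type label. Female 1 labelled knockout lay below the male labelled wild type, so the groups overlapped by that one library. The means were 186 ± 75.5 and 95.1 ± 19.4 CPM (SD, n = 3 each), a difference of 0.89 ± 0.23 (log2, SE; limma adjusted p = 0.775, unadjusted p = 0.0043; exact permutation test, two-sided, p = 0.2, where 3 against 3 can go no lower than 0.1). The difference had the same sign in females alone, 0.78, and between the males, 1.12. Over the alternative settings it was 0.65 to 1.19, with limma adjusted p between 0.234 and 1.0. Of 15 other p53 target genes listed, limma called 0 by label, 0 had an unadjusted p under 0.05, and their median difference was -0.16. The 2 of these with the smallest p were Btg2, an antiproliferative gene, at -0.52 ± 0.26, and Tnfrsf10b, a death receptor gene, at 0.30 ± 0.18 (log2, SE; limma adjusted p = 0.775 for both). Cdkn1a spans chromosome 17, 29090976 to 29100727, plus strand, 50.6 Mb from Cyp1b1; exons of AC167363.2 overlap it on the other strand, with 0.692 to 2.56 CPM.

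Sgk1, a kinase gene that hormone raises quickly in many tissues and that promotes sodium uptake through the epithelial channel, had 124, 158 and 217 CPM in libraries labelled knockout. It had 134, 124 and 162 CPM in those labelled wild type. The male was the highest library under each label, and the labels overlapped. Sgk1 is the member whose start held the full palindrome printed above. Klf9, a Krüppel-like transcription factor gene, had 251, 330.1 and 381 CPM in libraries labelled knockout, against 246, 331 and 222 CPM in those labelled wild type. The male was its highest library labelled knockout and its lowest labelled wild type, and the females numbered 2 were at nearly one level across labels. The difference by label was 0.22 ± 0.13 for Sgk1 and 0.27 ± 0.20 for Klf9 (log2, SE; limma adjusted p = 0.775 for both). Sgk1 spans chromosome 10, 21882184 to 21999903, plus strand, and Klf9 chromosome 19, 23141226 to 23168134, plus strand.

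Tsc22d3 encodes GILZ, a leucine-zipper protein that carries part of the hormone's anti-inflammatory action. It had 307, 491 and 260.3 CPM in libraries labelled knockout, against 351, 352 and 368 CPM in those labelled wild type. The libraries labelled wild type lay close together, whereas female 2 labelled knockout was above all of them and the other libraries labelled knockout below. Dusp1 encodes MKP-1, a phosphatase that switches off MAP kinases, and had 493, 799 and 587 CPM in libraries labelled knockout, against 625, 709.6 and 713 CPM in those labelled wild type. Female 2 was again the highest library labelled knockout, and the labels overlapped. The differences by label were -0.07 ± 0.20 for Tsc22d3 (limma adjusted p = 0.938) and -0.15 ± 0.19 for Dusp1 (log2, SE; limma adjusted p = 0.846). Tsc22d3 spans chromosome X, 140539528 to 140600659, minus strand. Dusp1 spans chromosome 17, 26505590 to 26562128, minus strand, 53.2 Mb from Cyp1b1, and its exons overlap those of Ergic1 on the other strand, which had 60.5 to 79.5 CPM.

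By label, limma called 0 of the 9 members at an adjusted p under 0.05, against 0.0115% of all genes tested. At an unadjusted p under 0.05 there was 1 of 9, Cdkn1a, where 5.13% of all genes passed. The labels overlapped in every member: 0 of 9 had groups apart, against 9.52% of all genes. The members' median difference was 0.22 (log2), against -0.06 over all genes tested, and 0.01 among the females alone. Of the 9 values 5 were above 0 and 4 below, but with each library centred on its median, or without female 1 labelled knockout, 8 of 9 were above 0.

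**Figure D2:**
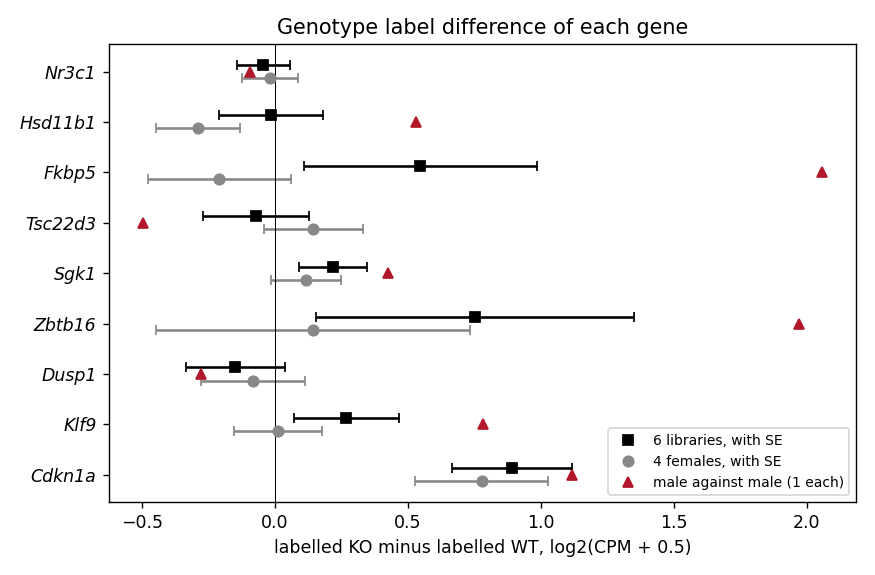
Difference by label of each of the 9 genes (labelled knockout minus labelled wild type, log2 of CPM plus 0.5) with its standard error from limma over all 6 libraries (black squares), the same among the 4 females (grey circles), and the difference between the 2 males (red triangles, 1 library each, no error). The pooled values run from -0.15 for Dusp1 to 0.89 for Cdkn1a, and those of Fkbp5 and Tsc22d3 differ in sign from the value among females.

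Per kilobase of annotated exon, which allows levels of different genes to be compared, Dusp1 was the highest member under both labels, with 189 ± 47.3 CPM per kb under the knockout label and 206 ± 15.1 CPM per kb under the wild type label (SD, n = 3 each). Fkbp5 was the lowest on this scale, with 6.71 ± 7.55 and 2.99 ± 0.69 CPM per kb, and Zbtb16 next, with 16.2 ± 15.4 and 7.80 ± 4.50 CPM per kb. Tsc22d3 came second and Klf9 the third from the top under both labels; their levels per kb overlapped in libraries labelled knockout and did not in those labelled wild type. Cdkn1a, Hsd11b1, Sgk1 and Nr3c1 followed with means between 27.9 and 52.4 CPM per kb in libraries labelled knockout, and between 26.8 and 36.7 CPM per kb in those labelled wild type. Neighbours among these 4 overlapped in range under each label. Fkbp5 and Zbtb16 overlapped under both labels. Their coefficients of variation over the 6 libraries were 107% and 92.8%, against 6.18% to 49.9% for the other members.

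The clearest pattern in the members lay in one library. In the male labelled knockout, Fkbp5 was 6.49 times and Zbtb16 4.41 times the mean of the 2 females of that label. A rule set after these values were seen, at least 2-fold above those females, took these 2 of 9 members, against 4.71% of all genes tested. The male labelled wild type met the same rule over its own females in 0 of 9 members, against 7.71% of all genes. There Fkbp5 was 1.38 times and Zbtb16 1.14 times the mean of the females. For 5 of 9 members, Fkbp5, Zbtb16, Sgk1, Klf9 and Cdkn1a, the male labelled knockout was the highest of the 6 libraries, as it was for 17.6% of all genes. It was the lowest library for Nr3c1 and Tsc22d3.

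As a label effect that differs between the sexes, Fkbp5 was the 1 of 9 members past the threshold, where 2.54% of all genes passed and 0.702% passed in the higher direction. Its interaction was 2.27 ± 0.46 (log2, SE; limma adjusted p = 0.0455). With a pseudocount of 0.1, without the low-value filter, without the variance trend or without female 2 labelled wild type (limma adjusted p = 0.0763) the call was lost, and over all alternatives limma's adjusted p ran from 0.00752 to 0.250. Zbtb16 had an interaction of 1.83 ± 1.07 (log2, SE; limma adjusted p = 0.418), which was 0.85 without female 2 and 2.81 without female 1 labelled wild type, and 1.06 without female 1 labelled knockout. Klf9 had one of 0.77 ± 0.30 (log2, SE; limma adjusted p = 0.224). Of the 441 genes called, 122 were higher and 319 (1.84% of all genes) lower, and with each library centred on its median 348 were higher and 313 lower. Each label holds 1 male, so the male of either label cannot be told apart from any other feature of that library. The spread behind the interaction p-values came from the females alone and holds no variation between males. Beside these values stand the neutrophil, platelet and erythroid markers given above, which were highest in the same library. The cardiac muscle sum was highest there too, at 1889 CPM, against 1011 to 1506 CPM in the 4 females and 1396 CPM in the other male. So was the monocyte sum, at 363 CPM, against 85.6 to 131 CPM in the females and 282 CPM in the other male. Of these 2 lists, 2 of 4 markers each were at their highest in that library. The part of all these markers in the result was not tested.

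**Figure D3:**
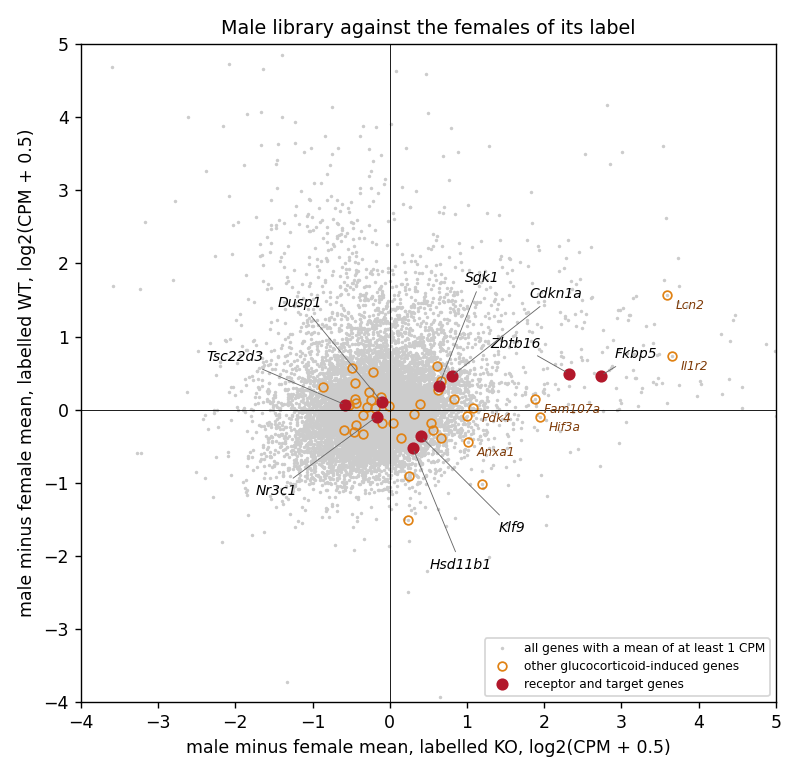
Male minus mean of the females, log2(CPM + 0.5), in libraries labelled knockout (horizontal) and labelled wild type (vertical); grey points are genes averaging 1 CPM or more, the 9 members are red, and further induced genes are open circles (25 of 16026 genes lie outside the axes). Fkbp5 and Zbtb16 lie far right, at 2.73 and 2.32, while Nr3c1 and Dusp1 lie near the origin.

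Between the sexes over both labels (male minus female), limma called 0 of 9 members, against 0.834% of all genes tested. At an unadjusted p under 0.05 there were 3 of 9, where 15.3% of all genes passed, all higher in males. These were Fkbp5, at 1.60 ± 0.47 (limma adjusted p = 0.160), Sgk1, at 0.48 ± 0.14 (limma adjusted p = 0.153), and Cdkn1a, at 0.63 ± 0.24 (log2, SE; limma adjusted p = 0.264). Without the male labelled wild type Fkbp5 passed, at 2.73 (limma adjusted p = 0.00541); that value compares the male labelled knockout with the females. Without the male labelled knockout it was 0.47 (limma adjusted p = 0.551), so the sex difference of Fkbp5 rests on that library.

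Both females numbered 2 had more of several members than the females numbered 1, a pattern picked out after the values were seen. Zbtb16 was 2.93 times as high in female 2 as in female 1 labelled knockout, and 3.98 times labelled wild type. Fkbp5 was 1.84 and 1.33 times as high, and Klf9 1.32 and 1.34 times. These 3 of 9 members were at least 25% higher in female 2 under both labels, against 5.75% of all genes tested. With a rise of any size counted, 5 of 9 members were higher in female 2 under both labels, against 27.6% of all genes. Nr3c1 was 0.906 and 0.954 times as high, so the receptor's own transcript did not share this pattern. In those libraries all 4 of 4 adipocyte markers were also higher in female 2 under both labels, summing to 59.6 against 29.3 CPM labelled knockout and 55.2 against 36.4 CPM labelled wild type. All 4 of 4 smooth muscle markers were too, summing to 1085 against 999 CPM labelled knockout and 1322 against 851 CPM labelled wild type, as were 3 of 4 ciliated and 3 of 4 cardiac muscle markers; the part of these was not tested. The female numbers are names only and do not pair the libraries.

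**Figure D4:**
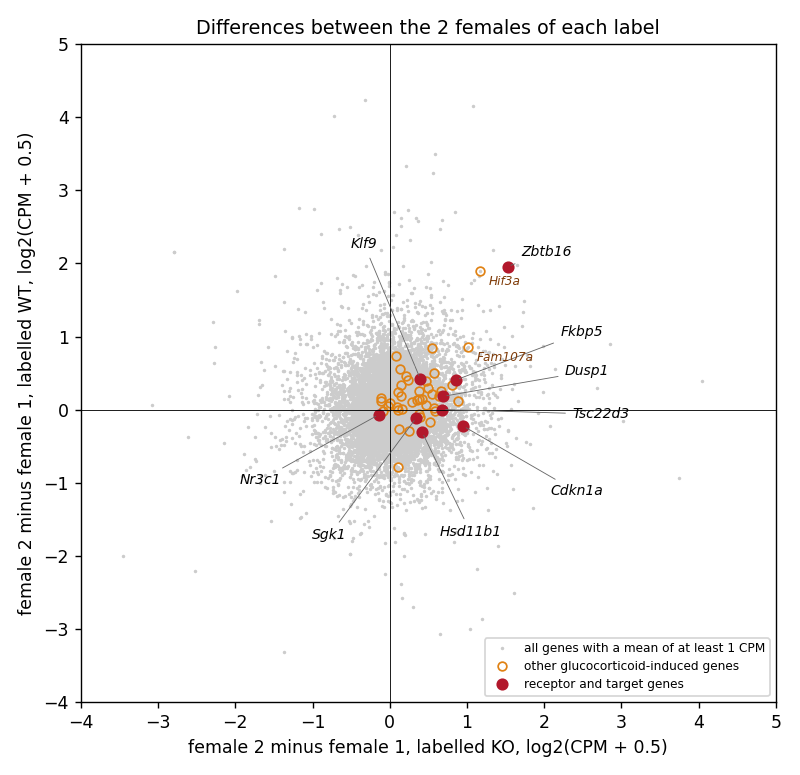
Female 2 minus female 1, log2(CPM + 0.5), in libraries labelled knockout (horizontal) and labelled wild type (vertical); grey points are genes averaging 1 CPM or more (1 of 16026 lies outside the axes), the 9 members are red, and further induced genes are open circles. Of the members Zbtb16 lies highest on both axes, at 1.53 and 1.96. Fkbp5, Klf9, Dusp1 (0.70 and 0.18) and Tsc22d3 (0.68 and 0.003) are also positive on both.

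Further genes that glucocorticoids are known to induce were drawn from a list of 40. By label, limma called 0 of them, 4 of 40 had an unadjusted p under 0.05 (5.13% of all genes did), all higher in libraries labelled knockout (Angptl4, Il1r2, Foxo3 and Pdk4), and their median difference was 0.10 (-0.06 over all genes). The 2 with the smallest p were Angptl4, an inhibitor of lipoprotein lipase, and Il1r2, a decoy receptor for interleukin 1. Angptl4 had 33.3, 48.9 and 62.8 CPM in libraries labelled knockout, against 27.7, 32.1 and 36.1 CPM in those labelled wild type, a difference of 0.55 ± 0.17 (log2, SE; limma adjusted p = 0.775). Il1r2 had 2.87, 3.12 and 43.6 CPM labelled knockout, against 1.80, 0.841 and 2.43 CPM labelled wild type, so most of its difference lay in one library. In the male labelled knockout, 7 of 40 were at least 2-fold above the females of that label (Anxa1, Fam107a, Hif3a, Il1r2, Lcn2, Pdk4 and Tat), against 4.71% of all genes. In the male labelled wild type 1 of 40 was, Lcn2, against 7.71% of all genes. These genes, and those below, were named after their values were seen.

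Fam107a, an actin-associated stress gene, had 12.7, 26.3 and 69.0 CPM in libraries labelled knockout, against 12.4, 22.9 and 18.7 CPM in those labelled wild type. Hif3a, a hypoxia-inducible factor subunit gene, had 3.18, 7.76 and 20.8 CPM labelled knockout, against 1.97, 8.70 and 3.93 CPM labelled wild type. Both had their highest level in the male labelled knockout and were higher in female 2 than in female 1 under each label. Pdk4, which restrains pyruvate dehydrogenase, had 28.5, 45.5 and 76.5 CPM labelled knockout, against 25.4, 30.4 and 28.3 CPM labelled wild type. Lcn2, an iron-binding protein of neutrophil granules, had 61.0, 70.9 and 800.0 CPM labelled knockout, against 73.9, 102 and 259 CPM labelled wild type. It was the 1 of 40 called by sex, at 2.58 ± 0.39 (log2, SE; limma adjusted p = 0.0320, and 0.000146 to 0.168 over the alternatives). The call held in 9 of 14 alternatives. It was lost with robust moderation (0.140) and without the variance trend (0.168). It was also lost without female 1 labelled wild type (0.0893), female 1 labelled knockout (0.0869) or female 2 labelled knockout (0.162). Anxa1, a phospholipid-binding mediator of the anti-inflammatory response and also abundant in neutrophils, had 211, 194 and 408 CPM labelled knockout, against 203, 227 and 159 CPM labelled wild type. Per1, a clock gene, did not share the pattern: it had 223, 236 and 191 CPM labelled knockout, against 157, 263 and 240.1 CPM labelled wild type. Interactions past the threshold were found for Anxa1, Il1r2 and Lcn2 (3 of 40, all higher, against 0.702% of all genes). With each library centred on its median 8 of 40 passed, with robust moderation or without either female labelled wild type 5, and without the filter or the variance trend 0. The call of Il1r2 held in 6 of 12 alternatives (limma adjusted p from 0.0176 to 0.214); it was lost without female 1 labelled wild type (0.0553) and without female 1 (0.0941) or female 2 (0.0793) labelled knockout. For these genes neutrophil markers were at their highest in the library where the genes were, the male labelled knockout; their part was not tested.

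**Figure D5:**
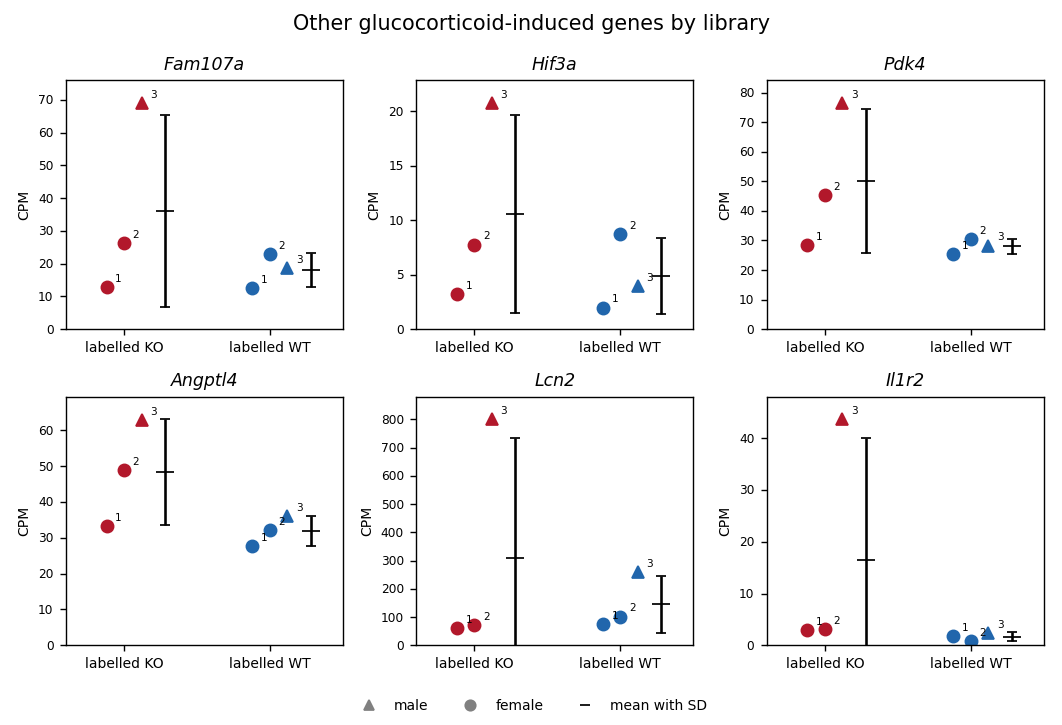
Level in CPM in every library of further genes that glucocorticoids are known to induce, with females as circles and males as triangles, and with the mean and SD of each label's 3 libraries; lower SD bars that would pass 0 stop there. Fam107a, Hif3a and Pdk4 reach 69.0, 20.8 and 76.5 CPM in the male labelled knockout, and Lcn2 is highest in the males, at 800.0 and 259 CPM.

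Of 12 inflammatory genes that glucocorticoids are known to hold down, limma called 0 by label; 2 had an unadjusted p under 0.05, the chemokine gene Cxcl2 at 0.75 ± 0.31 and the cytokine gene Tnf at -1.68 ± 0.40 (log2, SE; limma adjusted p = 0.775 for both). Their median difference was -1.04, and -0.003 among females alone. At least 2-fold above the females of the label were 2 of 12 in the male labelled knockout (4.71% of all genes were), against 8 of 12 in the male labelled wild type (7.71%). The interaction was past the threshold, lower, for 6 of 12 (Ccl2, Ccl5, Cxcl10, Nos2, Ptgs2 and Vcam1), against 1.84% of all genes; 3 of 12 passed without female 1 labelled knockout, and 0 without the filter or the variance trend. Cxcl10, an interferon-induced chemokine gene, had 2.64, 1.31 and 0.819 CPM in libraries labelled knockout, against 2.64, 1.14 and 75.5 CPM in those labelled wild type. Immune cell markers moved with these genes: beside the T cell sum given above, the plasma cell sum in the male labelled wild type was 1780 CPM, against 121 to 549 CPM in the other libraries, the dendritic sum 1793 CPM, against 259 to 567 CPM, and the natural killer sum 53.8 CPM, against 20.4 to 35.3 CPM. Their part was not tested.

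In the machinery upstream of the targets no gene passed by label. Of 12 HSP90 chaperones and co-chaperones of the receptor limma called 0, with 0 at an unadjusted p under 0.05 and a median of -0.14, which was 0.05 among females alone. Those with the smallest p were Ppid, at -0.38 ± 0.17, and Ahsa1, at -0.31 ± 0.15 (log2, SE; limma adjusted p = 0.775 for both), and each had its lowest level in the male labelled knockout. Of 14 coactivators and corepressors limma called 0, again with 0 at an unadjusted p under 0.05, and the median was 0.04 (-0.04 without female 1 labelled wild type, and 0.15 without female 2 of that label or with median centring); Ncoa2 differed by 0.15 ± 0.10 and Ncor1 by 0.19 ± 0.12 (log2, SE; limma adjusted p = 0.775 for both). Of 12 genes measured for steroid supply and mineralocorticoid action limma called 0, with 0 at an unadjusted p under 0.05 and a median of -0.03 (0.07 without female 2 labelled wild type or with median centring). Star, which carries cholesterol into mitochondria, had 6.50, 9.35 and 7.64 CPM labelled knockout, against 8.58, 15.6 and 8.58 CPM labelled wild type. Cyp11a1, the first enzyme of steroid synthesis, had 1.34, 0.399 and 0.117 CPM labelled knockout, against 1.17, 0.594 and 1.92 CPM labelled wild type, close to the level of 3 reads in the male labelled knockout. H6pd, which supplies the NADPH that the Hsd11b1 enzyme uses, was, like Hsd11b1, highest in the male among libraries labelled knockout and lowest in the male among those labelled wild type, with 276, 295 and 363 CPM labelled knockout, against 301, 284 and 235 CPM labelled wild type; it was picked after its values were seen.

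As a description, the genes whose levels over the 6 libraries ran most like each member were found among 11068 genes with a mean of at least 10 CPM. Picked by the correlation itself, they carry no test. Fkbp5 ran most like Mark4 and Hook3 (Pearson r = 0.995 and 0.991, n = 6), with Mark4 at 48.1, 52.5 and 79.4 CPM in libraries labelled knockout, against 50.1, 54.2 and 56.4 CPM in those labelled wild type. Zbtb16 ran most like Spire1 and Lpin2 (r = 0.986 for both). Tsc22d3 ran most like Elp5 and Cebpd (r = 0.986 for both); Cebpd, on the list of induced genes, had 288, 401 and 236 CPM labelled knockout, against 295, 309.5 and 315 CPM labelled wild type. Nr3c1 ran most like Cd34 and Zfp959 (r = 0.991 and 0.983). The remaining top pairs were Sgk1 with Tirap, Klf9 with Slc30a9, Cdkn1a with Aars, Dusp1 with Ppp2r3d and Hsd11b1 with Hagh, at r between 0.978 and 0.996.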

How the data were processed

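The table held gene-level CPM values as deposited by the authors, 1 column for each of the 6 libraries, with 0.0001 added to each value by the look of the lowest entries. Every column mapped to a sample (0 unmapped). The genome build was mm10, and TopHat2 and Partek are named, per the submitters' processing notes; no source used gives their versions, the annotation or the use of strand. RNA was extracted with a column kit, per the labels' protocols. Values of up to 100 reads were whole reads, within 0.05, for 82.4% to 83.6% of genes per library, too few for a count model, which was planned only for counts, so log2(CPM + 0.5) was tested. The fit was limma (3.58.1, R 4.3.3) with genotype label and sex as terms over genes with a mean of at least 0.5 CPM, a trend in variance, and Benjamini-Hochberg adjustment; an interaction term was added for the difference between sexes. Fold changes on this scale understate the change of low genes. The fit by label was tested on simulated data with the same dispersion for every gene and no sex difference. The sex and interaction terms were not tested in this way. Coordinates, exon lengths and overlaps came from GENCODE M21, and promoter sequences from RefSeq. Python 3.11.15 made the tables (pandas 2.3.3, numpy 2.4.6) and figures (matplotlib 3.10.9). Assigned reads numbered 20.2 to 27.6 per library in units of 1000000, a depth that limits genes of a few reads but not the members.

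The members, the further lists and the tests were chosen with earlier results of these data known, so a pattern seen in them is no independent support. Named were all 9 members, Cyp1b1, from each list the genes past the threshold by label and the 2 of smallest p, and for each member the 2 genes of highest correlation over libraries with a mean of at least 10 CPM. Other genes were named after their values were seen (Fam107a, Hif3a, Pdk4, Lcn2, Anxa1, Tat, Foxo3, Per1, H6pd, Dnaja1, Cebpd as an induced gene, and the repressed genes called for the interaction). Alternatives tried were another pseudocount, filter, scaling, variance model, the females alone, no sex term and each library left out.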

Additional observations from a re-analysis of the deposited data

Results flagged for a closer look

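By the interaction term in limma, the label difference of the males stood apart from that of the females for Fkbp5 and for genes of the other lists. Each label held 1 male, so limma's spread came from the females alone and holds no variation between males. The differences are given as label effect in the male minus that in the females (log2). For Fkbp5 it was 2.27, with 146 CPM in the male labelled knockout against 34.6 CPM in the male labelled wild type. Among the further induced genes it was 2.02 for Lcn2, 2.92 for Il1r2 and 1.45 for Anxa1; the call of Il1r2 held in 6 of 12 alternatives, with limma adjusted p up to 0.214, and those of Lcn2 and Anxa1 in 10 of 12 each. Among the repressed inflammatory genes it was -3.68 for Ccl2, -3.42 for Ccl5, -5.92 for Cxcl10, -3.06 for Nos2, -1.44 for Ptgs2 and -2.07 for Vcam1. The size for Ccl2 depended on the pseudocount, with -5.89 at 0.1 and -2.80 at 1. The calls of these genes held in 5 (Ccl2), 7 (Ptgs2), 8 (Ccl5) and 10 (the other 3) of 12 alternatives. For the heat shock gene Dnaja1 it was -1.55 (10 of 12). Among the immediate early genes it was -2.54 for Egr2, a zinc-finger transcription factor gene, which had 10.3, 15.1 and 9.08 CPM in libraries labelled knockout, against 10.9, 20.4 and 66.0 CPM in those labelled wild type; its call held in 7 of 12 alternatives, and that of Fkbp5 in 8. Each rests on 1 male of each label.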

How the results depend on the processing

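No paired analysis was possible because the labels give no replicate numbers and the numbers used here only name libraries. By label, 2 genes passed (limma), 6 without the filter, with quantile normalization, with median centring or with robust moderation, 7 among females alone and 1 to 4 with a library left out; 0 of 9 members passed under all of these. By sex 145 passed, 11 without the variance trend, and 21 to 840 with a library left out, with 0 to 1 members. For the interaction 441 passed, 0 without the filter (3367 at an unadjusted p under 0.05) and 0 without the variance trend (2641), and 230 to 577 with a library left out. The 1 member called became 0 with a pseudocount of 0.1, without the filter and without the variance trend, and 0 to 1 with a library left out; without either male the interaction could not be fitted.

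Gene values whose sign turned are given here, each with the full range over left-out libraries where that turned it. By label, median centring gave Nr3c1 0.059, Hsd11b1 0.087 and Tsc22d3 0.033; females alone gave Fkbp5 -0.21, Tsc22d3 0.14, Anxa1 -0.087 and Lcn2 -0.39. With a library left out, values by label ran from -0.29 to 0.18 for Hsd11b1, -0.21 to 1.01 for Fkbp5, -0.33 to 0.14 for Tsc22d3, -0.37 to 0.031 for Dusp1, -0.087 to 0.58 for Anxa1 and -0.39 to 0.60 for Lcn2. By sex they ran from -0.52 to 0.30 for Hsd11b1, -0.58 to 0.067 for Tsc22d3, -0.13 to 0.16 for Dusp1 and -0.37 to 0.40 for Klf9. For the interaction, median centring gave Nr3c1 0.15 and Dusp1 0.030, and with a library left out values ran from -0.54 to 0.15 for Dusp1 and -0.14 to 0.82 for Cdkn1a. Among list medians by label, those of chaperones (0.05) and heat shock genes (0.06) turned above 0 among females alone or without either male, that of coregulators (-0.04) turned without female 1 labelled wild type, and that of steroid supply (0.02 with quantile normalization, 0.07 with median centring or without female 2 labelled wild type) turned above 0. The cause was not tested. Median centring moved the all-gene median by label from -0.06 to 0.05. The counts of 2 members by the 2-fold rule and 3 by the 25% rule were unchanged with median centring and quantile normalization, alternatives chosen after seeing the data.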

Other observations

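Of 19 clock genes, which glucocorticoids are known to reset, 14 had an unadjusted p under 0.05 by label (5.13% of all genes did), 4 higher and 10 lower in libraries labelled knockout, and limma called 0; their median difference was -0.47 (log2). Dbp, a clock output gene, had 79.9, 54.1 and 35.2 CPM in libraries labelled knockout, against 172, 209 and 140.1 CPM in those labelled wild type, a difference of -1.67 ± 0.18 (log2, SE; limma adjusted p = 0.0508, and 0.0230 to 0.588 over the alternatives, under 0.05 in 6 of 16). Nr1d1, the repressor REV-ERBα, had 227, 202 and 146 CPM labelled knockout, against 331, 354 and 212 CPM labelled wild type, a difference of -0.63 ± 0.10 (log2, SE; limma adjusted p = 0.333).

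Of 11 heat shock genes limma called 0 by label, with 0 at an unadjusted p under 0.05 and a median of -0.14 (0.06 among females alone). Hspa1b, an inducible HSP70 gene, had 358, 652 and 129.97 CPM in libraries labelled knockout, against 426, 715 and 560.0 CPM in those labelled wild type. Like Zbtb16 it was higher in female 2 than in female 1 under both labels, but unlike Zbtb16 it was lowest in the male labelled knockout. At least 25% higher in female 2 under both labels were 4 of 11 heat shock genes and 4 of 15 immediate early genes, against 5.75% of all genes tested. Of the 15 immediate early genes limma called 0 by label, 1 had an unadjusted p under 0.05 and the median was -0.37 (-0.01 among females alone). That gene, Junb, had 246, 326 and 229 CPM labelled knockout, against 379.8, 379.8 and 654 CPM labelled wild type.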
